A study of Mus musculus with 16 samples.

Results

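The thioredoxin, sulfiredoxin and peroxiredoxin system was followed through 10 genes, given as a list of names, among the 51912 genes of the deposited table. The 6 genes whose products work mainly in the cytosol were Txnrd1, Txn1, Srxn1, Prdx1, Prdx2 and Prdx6, and the 4 genes of mitochondrial products were Txnrd2, Txn2, Prdx3 and Prdx5. The tissue was retinal pigment epithelium (RPE), the pigmented layer that supports the photoreceptors, taken from male C57BL/6 mice aged 40 weeks. The mice were wild type or knockout for Sucnr1, which encodes a receptor for succinate. Each genotype was left untreated or given hydroquinone, a pro-oxidant compound. This made 4 groups of 4 libraries, called here untreated wild type, wild type with hydroquinone, untreated knockout and knockout with hydroquinone. Dose, route and duration of hydroquinone, and the kind of Sucnr1 allele, were not given in the sources used here. A library was 1 eye. The titles name 13 mice, with 2 behind the untreated wild-type libraries, 3 behind the untreated knockout libraries and 4 behind each hydroquinone group, whereas the labels' protocol states 4 animals in every group.

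Peroxiredoxins are thiol enzymes that reduce hydrogen peroxide and other peroxides. Most of them are then re-reduced by thioredoxin, which in turn is re-reduced by thioredoxin reductase with electrons from NADPH. The cytosol and the mitochondria hold separate sets of these proteins. When peroxide is high, the catalytic cysteine of a typical peroxiredoxin can be over-oxidized, and sulfiredoxin (Srxn1) repairs it. Srxn1, Txnrd1 and Prdx1 are textbook targets of NRF2, a transcription factor that binds antioxidant response elements. The RPE lies next to a dense blood supply, takes up oxidized photoreceptor membranes and is known for a high demand on such defences.

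Promoter sequence is shown for Srxn1, Txnrd1 and Prdx1, because Srxn1 and Txnrd1 were the members that passed the test for hydroquinone and the windows of these 3 were the ones that held a motif. RefSeq windows of 250 bases before to 50 bases after a gene start (GRCm38.p6) were found for 9 of the 10 members. They were searched on both strands for the core of the antioxidant response element, TGACNNNGC, and for the AP-1 core, TGANTCA, which it can contain. Below are the 250 bases before the start, 5′ to 3′ on the gene's strand, with the matches in capitals.
Srxn1, chr2:152105274-152105523, plus strand: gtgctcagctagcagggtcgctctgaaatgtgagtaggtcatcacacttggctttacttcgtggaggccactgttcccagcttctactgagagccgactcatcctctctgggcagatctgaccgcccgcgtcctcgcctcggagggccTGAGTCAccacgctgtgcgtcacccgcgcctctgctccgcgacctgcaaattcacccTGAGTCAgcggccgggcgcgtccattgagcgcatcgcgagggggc
Txnrd1 (the second of 3 RefSeq starts), chr10:82858956-82859205, plus strand: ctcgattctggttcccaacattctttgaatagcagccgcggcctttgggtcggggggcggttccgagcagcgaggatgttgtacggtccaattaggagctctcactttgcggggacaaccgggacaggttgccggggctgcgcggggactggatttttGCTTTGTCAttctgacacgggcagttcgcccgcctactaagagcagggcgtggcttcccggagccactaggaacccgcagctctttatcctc
Prdx1, chr4:116685349-116685598, plus strand: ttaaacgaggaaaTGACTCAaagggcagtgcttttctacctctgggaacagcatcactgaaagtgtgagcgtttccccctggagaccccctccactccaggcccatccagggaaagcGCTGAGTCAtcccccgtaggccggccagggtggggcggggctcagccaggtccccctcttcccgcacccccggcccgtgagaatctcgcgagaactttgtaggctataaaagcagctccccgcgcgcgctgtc

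With the first transcribed base as position 0, the element core matched at -92 in the Txnrd1 window (GCTTTGTCA on the gene's strand) and at -133 in the Prdx1 window (GCTGAGTCA). In Prdx1 that match overlapped an AP-1 core at -131, and another AP-1 core lay at -237. The Srxn1 window held AP-1 cores at -102 and -45, and its element core (GCTAGGTCA) lay at position 28, inside the transcribed part that is not printed. Neither motif was in the windows of the other 2 Txnrd1 starts or of Txn1, Prdx2, Txnrd2, Txn2, Prdx3 and Prdx5. Among 32851 RefSeq windows of the same length, 12.4% held the element core, 7.81% the AP-1 core and 1.17% both. These matches describe letters in the windows only.

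Library totals ranged from 21113549 to 35332444 counts. Members other than Txnrd2 had between 1046 and 19761 counts in every library, and Txnrd2 had 161 to 297. Sucnr1 itself checks little here, since it had 0 to 3 counts in the knockout libraries but also 0 or 1 in 6 of the 8 wild-type libraries, with 10 and 17 counts in the other two, both untreated. The 12 RPE markers were present in every library at a summed 21472 to 33730 CPM (counts scaled to the TMM-adjusted library size). Markers of neighbouring tissue were present as well. The 15 rod photoreceptor markers summed to 268 to 24339 CPM and the 7 corneal epithelium markers to 3903 to 30133 CPM, in spite of the removal of retina and anterior segment. In such bulk RNA, fewer cells of a type and less RNA per cell cannot be told apart. The sample identifiers have 2 forms, 9 without and 7 with an added letter, and what the letter stands for is not given in the sources used here, so values within each form are given beside the main results.

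Relative to the joined length of all annotated exons, Prdx1 and Prdx5 had the highest mean levels and Txnrd2 the lowest. That length covers all annotated transcripts of a gene (1051 bases for Txn1, 7086 for Txnrd1), so the order between genes also depends on the annotation. Prdx1, the major cytosolic peroxiredoxin, averaged 147 ± 23.8 CPM per kb of exon (SD over all 16 libraries) and Prdx5, an atypical peroxiredoxin of mitochondria that is also found in peroxisomes and cytosol, 143 ± 39.3 CPM per kb. Prdx1 stood above Prdx5 in 9 of the 16 libraries, so their order was not set. Txn1, the cytosolic thioredoxin, followed at 104 ± 41.6 CPM per kb, below Prdx5 in all 16 libraries. Prdx6, a 1-cysteine peroxiredoxin that also acts on phospholipids, and Prdx2, a cytosolic peroxiredoxin abundant in red cells, lay at 76.4 ± 11.5 and 75.3 ± 8.49 CPM per kb and changed places between libraries. Prdx3, the main mitochondrial peroxiredoxin, was below both at 45.2 ± 4.05 CPM per kb. The next 3 levels were close to each other, with Txnrd1 (cytosolic thioredoxin reductase) at 30.0 ± 8.23, Txn2 (mitochondrial thioredoxin) at 24.7 ± 2.66 and Srxn1 at 23.1 ± 5.88 CPM per kb. Txnrd2, the mitochondrial thioredoxin reductase, was lowest in all 16 libraries, at 1.96 ± 0.353 CPM per kb.

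**Figure D1:**
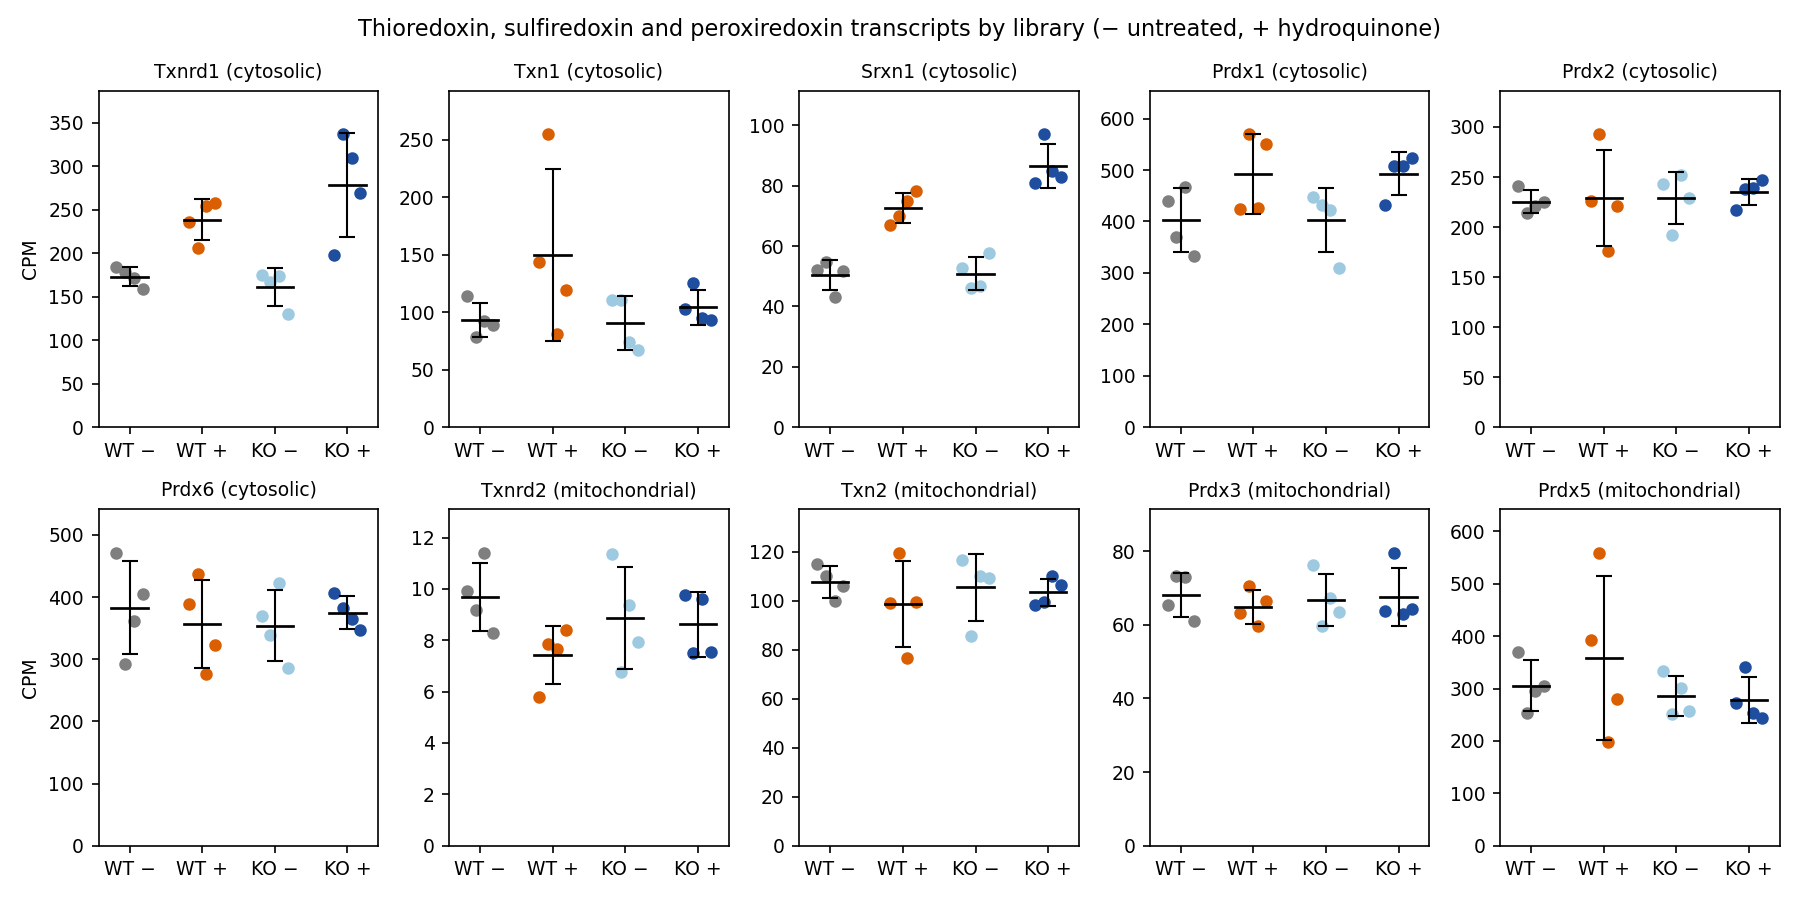
Each panel plots one gene as CPM (linear axis from 0) in every library of untreated (−) and hydroquinone-treated (+) wild-type (WT) and knockout (KO) mice; points are libraries, the black line is the mean and the bar its SD over 4 libraries. In the panels of Txnrd1 and Srxn1 every treated library lies above every untreated library of its genotype, and in those of Txn1 and Prdx5 one treated wild-type library, at 255 and 559 CPM, stands above the rest.

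Hydroquinone was accompanied by higher transcripts of sulfiredoxin and of the cytosolic thioredoxin reductase. Srxn1 (ENSMUSG00000032802, chromosome 2, 152105516 to 152111376, plus strand) had 52.0, 54.6, 43.1 and 51.8 CPM in untreated wild type and 67.0, 69.9, 74.8 and 78.3 CPM in wild type with hydroquinone. In the knockout it had 52.8, 46.2, 46.7 and 57.8 CPM untreated and 81.0, 97.0, 84.9 and 83.0 CPM with hydroquinone. The groups did not overlap in either genotype. Averaged over genotype, Srxn1 was 1.56-fold higher (log2 fold change 0.65, SE 0.072, 95% interval 0.49 to 0.80, edgeR adjusted p = 8.0e-04).

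Txnrd1 (ENSMUSG00000020250, chromosome 10, 82833951 to 82897712, plus strand) had 184, 178, 171 and 159 CPM in untreated wild type and 236, 206, 254 and 258 CPM with hydroquinone. Its untreated knockout libraries had 175, 166, 174 and 130 CPM and its treated knockout libraries 198, 337, 310 and 269 CPM. Treated and untreated libraries were again apart in both genotypes, with the lowest treated knockout library, replicate 1, closest to the untreated range. The log2 fold change of Txnrd1 averaged over genotype was 0.63 (SE 0.11, 95% interval 0.40 to 0.85, edgeR adjusted p = 0.033), or 1.54-fold.

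In all, 2 of the 10 members passed in the average over genotype, both higher and both cytosolic, where 13 of 15380 genes (0.0845%) passed in either direction with 11 (0.0715%) higher and 2 (0.013%) lower. The Txnrd1 call was the less firm of the pair. With the eyes of a mouse summed to 1 library its log2 fold change was 0.65 but its edgeR adjusted p was 0.430, and the call was also lost without any one of 14 of the 16 libraries (adjusted p 0.0679 to 0.112), the exceptions being wild type with hydroquinone replicate 2 and knockout with hydroquinone replicate 1. Srxn1 kept its call with eyes summed (adjusted p = 0.0163) and without any 1 library. Within the identifier forms, with 1 to 3 libraries per group, neither gene passed. Srxn1 had log2 fold changes of 0.70 without and 0.62 with a letter, and Txnrd1 0.51 and 0.77 (edgeR adjusted p 0.999 without and 0.115 with a letter for both).

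Within the knockout, Srxn1 passed at 0.77 on the log2 scale (SE 0.10, edgeR adjusted p = 0.00812), against a background of 0.0455% of genes called and 0.0325% called higher and 0.013% lower. This call was lost with eyes summed (adjusted p = 0.0651), with only the 2 knockout groups in the model (0.308), and without untreated knockout replicate 2 or 3 or treated knockout replicate 3 (0.0559, 0.0511 and 0.0517). Txnrd1 had 0.79 (SE 0.15) but did not pass (edgeR adjusted p = 0.161). Without treated knockout replicate 1 its log2 fold change was 0.92 and its adjusted p 0.00961. Within wild type no member passed, against a background of 0.0065% of genes called. Srxn1 had 0.53 there (SE 0.10, edgeR adjusted p = 0.267), and DESeq2 called it (adjusted p = 0.00109). At an unadjusted p under 0.05, 3 members (Srxn1, Txnrd1 and Txn1) stood out in wild type, where 4.28% of all genes did, and 2 (Srxn1 and Txnrd1) in knockout, where 2.96% of genes did.

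Txnrd1 and Srxn1 were the 2 members whose treated libraries lay wholly above the untreated ones in both genotypes. Of all genes tested, 1.13% did so in wild type, 1.18% in knockout and 0.0975% (15 genes) in both. No member lay wholly below in either genotype, against 1.78% of genes in wild type and 0.728% in knockout and 0.052% in both.

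The cytosolic thioredoxin and peroxiredoxins gave smaller or more scattered differences. Txn1 (ENSMUSG00000028367, chromosome 4, 57943373 to 57956411, minus strand), the protein disulfide reductase that feeds the peroxiredoxins, had 114, 78.7, 92.3 and 88.5 CPM in untreated wild type and 143, 255, 81.2 and 120 CPM with hydroquinone. In the knockout it had 110, 111, 74.3 and 66.7 CPM untreated and 103, 126, 94.8 and 93.1 CPM with hydroquinone. One treated wild-type library, replicate 2, was far above the others, and the groups overlapped in both genotypes. The log2 fold change was 0.68 in wild type (SE 0.28) and 0.20 in knockout (SE 0.28), and the average, 0.44, did not pass (SE 0.20, edgeR adjusted p = 0.868). Without treated wild-type replicate 2, the wild-type value was 0.30.

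Prdx1 (ENSMUSG00000028691, chromosome 4, 116685544 to 116700822, plus strand) had 440, 370, 468 and 334 CPM in untreated wild type and 425, 569, 425 and 550 CPM with hydroquinone. Knockout libraries had 447, 432, 423 and 310 CPM untreated and 432, 509, 508 and 523 CPM with hydroquinone. The groups overlapped, and in the knockout the lowest library of each group was the one with the highest rod marker score. The average log2 fold change was 0.29 (SE 0.11, unadjusted p = 0.0153, edgeR adjusted p = 0.823). It was 0.071 among libraries without a letter in the identifier and 0.57 among those with one, so the size rested on the latter. Of 50-base windows of the Prdx1 exons, 8.81% also occur in other genes, mostly processed copies, and the counting of such reads is not given in the sources used here.

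Prdx2 (ENSMUSG00000005161, chromosome 8, 84969587 to 84974834, plus strand) averaged 225 ± 11.4 and 229 ± 48.1 CPM in untreated and treated wild type, and 229 ± 26.1 and 235 ± 12.9 CPM in untreated and treated knockout (SD, n = 4 libraries). Prdx6 (ENSMUSG00000026701, chromosome 1, 161240112 to 161251219, minus strand) averaged 383 ± 74.7 and 356 ± 70.7 CPM in wild type and 354 ± 57.0 and 375 ± 26.0 CPM in knockout in the same order. Both overlapped throughout. Their average log2 fold changes, 0.029 (95% interval -0.17 to 0.23) for Prdx2 and -0.0099 (-0.26 to 0.24) for Prdx6, did not pass (edgeR adjusted p 0.967 and 0.989). Prdx2 shares exon sequence with the oppositely transcribed Junb and Rnaseh2a, and without a stated strand setting reads there cannot be assigned.

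None of the 4 mitochondrial members passed, or had an unadjusted p under 0.05, in any hydroquinone comparison. Txnrd2 (ENSMUSG00000075704, chromosome 16, 18426384 to 18479073, plus strand) had 9.90, 9.17, 11.4 and 8.29 CPM in untreated wild type and 5.77, 7.84, 7.67 and 8.38 CPM with hydroquinone. Its knockout values were 11.4, 6.75, 9.36 and 7.93 CPM untreated and 9.78, 7.5, 9.62 and 7.56 CPM with hydroquinone. Treated wild-type libraries lay low but overlapped the untreated ones at 1 library, and the knockout groups overlapped fully. The log2 fold change averaged -0.21 (95% interval -0.50 to 0.074, edgeR adjusted p = 0.914).

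Txn2 (ENSMUSG00000005354, chromosome 15, 77915047 to 77929006, minus strand) averaged 108 ± 6.40 CPM in untreated and 98.6 ± 17.5 CPM in treated wild type, and 105 ± 13.7 and 103 ± 5.58 CPM in untreated and treated knockout (SD, n = 4 libraries). Prdx3 (ENSMUSG00000024997, chromosome 19, 60864051 to 60874556, minus strand) was the steadiest member over all 16 libraries, with a coefficient of variation of 8.95% against 10.8 to 39.9% for the others. Its group means were 68.1 ± 5.96, 64.9 ± 4.68, 66.7 ± 7.06 and 67.6 ± 7.98 CPM in untreated and treated wild type and untreated and treated knockout. Average log2 fold changes were -0.076 for Txn2 (95% interval -0.26 to 0.11) and -0.026 for Prdx3 (-0.18 to 0.13), so a change of Prdx3 as large as that of Srxn1 lay outside the interval (edgeR adjusted p 0.936 and 0.966).

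Prdx5 (ENSMUSG00000024953, chromosome 19, 6906697 to 6910106, minus strand) had 370, 253, 294 and 305 CPM in untreated wild type and 394, 559, 197 and 281 CPM with hydroquinone. In the knockout it had 333, 252, 301 and 257 CPM untreated and 273, 340, 253 and 243 CPM with hydroquinone. The treated wild-type group held both the highest and the lowest value of all 16 libraries. Its average log2 fold change of 0.093 had a wide interval (-0.28 to 0.46, edgeR adjusted p = 0.954). Trmt112, on the opposite strand, covers 15.5% of the 50-base windows of Prdx5.

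**Figure D2:**
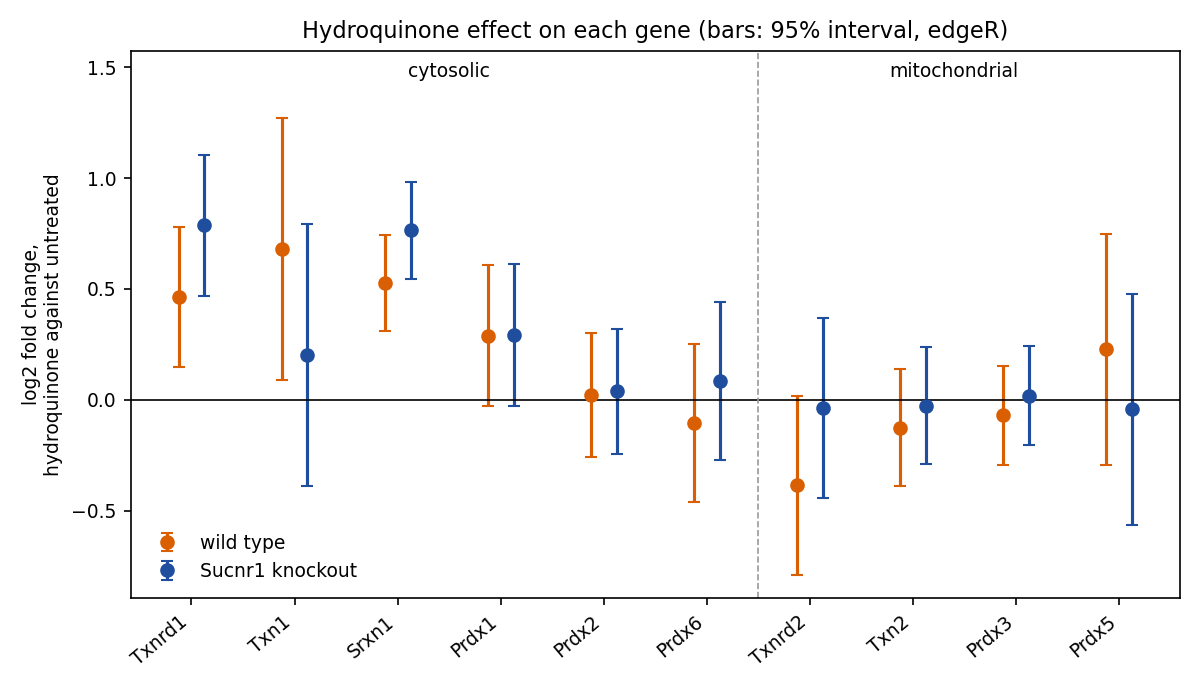
The plot gives the log2 fold change of each gene for hydroquinone against untreated, within wild type (orange) and within Sucnr1 knockout (blue), with bars for the 95% interval of the edgeR model; the dashed line parts cytosolic from mitochondrial genes. Intervals of Txnrd1 and Srxn1 lie above 0 in both genotypes, that of Txn1 in wild type, and those of all 4 mitochondrial genes cross 0.

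Set side by side, the cytosolic members had a median log2 fold change of 0.37 averaged over genotype, with 5 of 6 above 0 and 4 of 6 (Srxn1, Txnrd1, Prdx1 and Txn1) at an unadjusted p under 0.05. The mitochondrial members had a median of -0.051, with 1 of 4 above 0 and 0 of 4 at that p. Over all 15380 genes the median was 0.0046 and 5.72% reached that p. Median values were 0.38 and -0.098 for cytosolic and mitochondrial members in wild type, and 0.25 and -0.032 in knockout.

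The cytosolic to mitochondrial contrast was tested within libraries for 3 pairs of counterparts. The log2 ratio of Txnrd1 to Txnrd2 was 4.09, 4.14, 3.79 and 4.10 in untreated wild type and 5.13, 4.55, 4.88 and 4.78 with hydroquinone. In the knockout it was 3.83, 4.43, 4.08 and 3.87 untreated and 4.21, 5.31, 4.87 and 4.98 with hydroquinone. The groups were apart in wild type, while treated knockout replicate 1 fell below the highest untreated knockout library. Over mice the log2 ratio rose by 0.78 with hydroquinone (0.81 in wild type and 0.76 in knockout, exact permutation test within genotype, 2-sided, p = 0.00571, 0.0171 after adjustment over the 3 pairs), and the smallest p this test can give is 0.0019. The ratio combines a higher Txnrd1 with a lower mean of Txnrd2 in wild type. In knockout the log2 fold change was 0.79 for Txnrd1 and -0.037 for Txnrd2, so the rise there was mostly that of Txnrd1. Since Txnrd1 had passed by itself, this ratio is no result separate from its call.

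For Prdx1 to Prdx3 the log2 ratio ran from 2.32 to 2.73 in untreated and 2.73 to 3.03 in treated wild type, and from 2.27 to 2.83 in untreated and 2.66 to 3.01 in treated knockout. The wild-type groups met without overlap at 2.73 and the knockout groups overlapped. The rise was 0.32 (exact permutation test, 2-sided, p = 0.0114, adjusted 0.0171). Within identifier forms it was 0.084 higher without a letter (exact permutation p = 0.35) and 0.60 higher with one (p = 0.0556, the smallest that the 18 arrangements of those mice allow), so the pooled difference did not hold among libraries without a letter. Txnrd1 to Txnrd2 differed by 0.77 and 0.81 in the same split (exact permutation p = 0.05 and 0.0556, the latter again the smallest possible).

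Txn1 to Txn2 ran from -0.48 to -0.0093 in untreated and 0.084 to 1.08 in treated wild type, and from -0.70 to 0.37 in untreated and -0.21 to 0.34 in treated knockout. The difference of 0.46 did not pass (exact permutation test, 2-sided, p = 0.0724, adjusted 0.0724). Over 16 fits with 1 library left out, the difference ran from 0.34 to 0.61. The largest was without untreated knockout replicate 2, the library with the highest ratio of its group (exact permutation p = 0.00889, for a fit picked by its size). Within the identifier forms the difference was 0.34 without a letter and 0.53 with one (exact permutation p = 0.20 and 0.0556, the smallest possible with a letter).

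The mean log2(CPM + 1) of the 6 cytosolic members minus that of the 4 mitochondrial members, given as a description, ranged from 1.26 to 1.39 in untreated and 1.66 to 1.75 in treated wild type. It ranged from 1.22 to 1.60 in untreated and 1.60 to 1.79 in treated knockout. All treated libraries lay above all untreated libraries of their genotype, narrowly so in the knockout, where untreated replicate 2 and treated replicate 1 were both at 1.60 after rounding. The cytosolic mean includes Srxn1 and Txnrd1, which were apart in both genotypes by themselves, so this is no separate result. Other cytosolic members stayed near 0, with average log2 fold changes of 0.029 for Prdx2 and -0.0099 for Prdx6. The cytosolic mean went from 7.45 ± 0.12 to 7.74 ± 0.21 in wild type and from 7.41 ± 0.14 to 7.77 ± 0.11 in knockout, and the mitochondrial mean from 6.13 ± 0.083 to 6.03 ± 0.25 and from 6.06 ± 0.20 to 6.04 ± 0.070 (SD, n = 4 libraries).

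**Figure D3:**
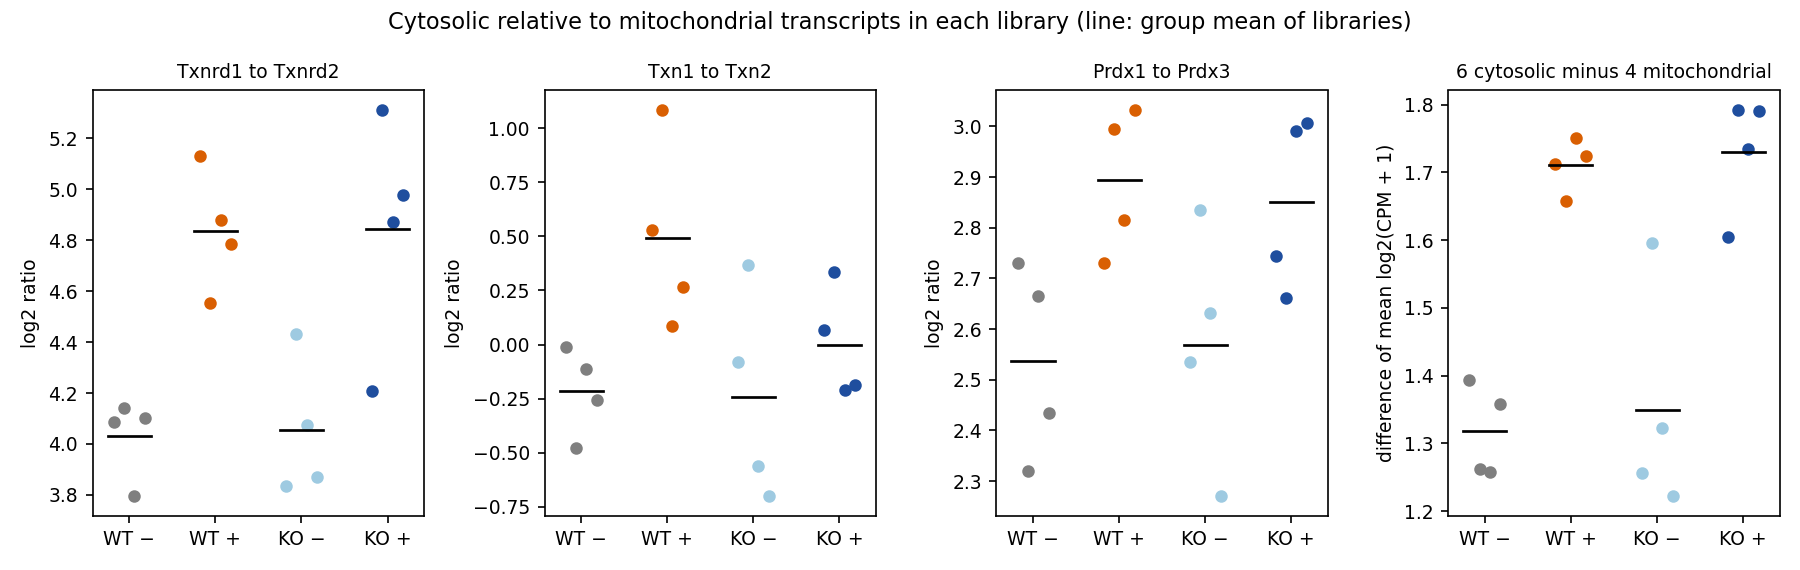
The first 3 panels plot, per library, the log2 ratio of a cytosolic gene to its mitochondrial counterpart in the 4 groups (WT and KO, − untreated, + hydroquinone), and the last panel the mean log2(CPM + 1) of the 6 cytosolic minus that of the 4 mitochondrial genes; black lines are means over libraries and axes do not start at 0. Treated libraries sit higher in the Txnrd1 to Txnrd2 panel (4.21 to 5.31 against 3.79 to 4.43), while Txn1 to Txn2 overlaps in the knockout.

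No member differed between the genotypes past the threshold. Untreated knockout and wild type differed by -0.13 to 0.023 on the log2 scale over the 10 members. None of them passed for genotype without hydroquinone, for genotype with hydroquinone or for the interaction, and across the genome no gene did either (0.0% of 15380 by edgeR in each, with 203, 643 and 296 genes, or 1.32%, 4.18% and 1.92%, at an unadjusted p under 0.05; DESeq2 called 0, 3 and 0 genes, none of them a member). With hydroquinone, Srxn1 was 86.4 ± 7.19 CPM in knockout and 72.5 ± 5.0 CPM in wild type (SD, n = 4 libraries), a log2 difference of 0.25 with a 95% interval of 0.037 to 0.47 (edgeR unadjusted p = 0.0249, the only member under 0.05 there, adjusted p = 1.0). The hydroquinone effect in knockout minus that in wild type was 0.24 for Srxn1 (95% interval -0.068 to 0.55) and 0.33 for Txnrd1 (-0.12 to 0.77). For Txn1 it was -0.48 (-1.31 to 0.35). These intervals do not show that the genotypes respond alike.

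The levels of some members moved with marker scores of other tissues. None of the 7 corneal or 15 rod markers was at 0 in any library. The corneal markers were Krt12, Krt5, Krt14, Aldh3a1, Pax6, Tkt and Krt15, and whether hydroquinone changes these genes themselves was not tested. Over the 13 mice, Prdx5 was higher with a higher corneal marker score, the mean log2(CPM + 1) of 7 corneal genes (Pearson r = 0.89, permutation p = 3.0e-05, adjusted over 20 correlations 6.0e-04; Spearman rho = 0.82, permutation p = 0.00105, adjusted 0.021). It was 0.90 and 0.87 among libraries without and with a letter, and 0.75 without the 2 mice farthest from the median score. With the corneal score in the model, the log2 fold change of Prdx5 for hydroquinone in wild type went from 0.23 to -0.016. Txn1 also followed that score (r = 0.80, permutation p = 4.9e-04, adjusted 0.0049; rho = 0.68, permutation p = 0.0129, adjusted 0.129), but r was 0.88 without and 0.030 with a letter and 0.51 without the 2 farthest mice. After subtraction of group means, r with the corneal score was 0.89 for Prdx5 and 0.86 for Txn1. Treated wild-type replicate 2 had the highest corneal score, 11.2, and the highest Txn1 and Prdx5. With that score in the model the Txn1 difference in wild type was 0.41 in place of 0.68. Prdx6 had r = 0.61 with the corneal score (permutation p = 0.027, adjusted 0.109) and rho = 0.59 (permutation p = 0.0389, adjusted 0.194). For Prdx6, r was 0.69 without and 0.43 with a letter and 0.45 without the 2 farthest mice. It was 0.79 after subtraction of group means.

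Txnrd1 and Prdx1 were lower where the rod marker score was higher (r = -0.64 and -0.63, permutation p = 0.0187 and 0.0194, adjusted 0.0968; rho = -0.59 and -0.50, permutation p = 0.0387 and 0.0843, adjusted 0.194 and 0.337). Without the 2 farthest mice r was -0.51 and -0.55. After subtraction of group means, r over the 13 mice was -0.86 for Txnrd1 and -0.71 for Prdx1, and 0.062 for Srxn1. With group differences left in, the relation was present among libraries with a letter (-0.98 for Txnrd1 and -0.94 for Prdx1). It was absent among those without (-0.016 and -0.089). Srxn1 had -0.86 with a letter and 0.34 without. With a letter, rod scores were 7.22, 8.13, 8.48 and 9.68 in untreated libraries and 2.85, 3.44 and 4.31 in treated ones. Within that form, a difference with hydroquinone and one with rod score therefore cannot be told apart, which holds for all values given for that form. Rod scores ran from 5.28 to 8.48 in untreated and 4.31 to 7.43 in treated wild type, and from 3.55 to 9.68 in untreated and 2.85 to 9.54 in treated knockout. Since 3 of the 4 treated knockout libraries had scores under 4, the Txnrd1 difference was also fitted with the rod score as a term, where it was 0.55 averaged over genotype (edgeR adjusted p = 0.0110) and 0.68 in knockout (adjusted p = 0.0427). Without the 2 libraries of scores above 9 it was 0.66 (edgeR adjusted p = 0.00171). The 7 oligodendrocyte markers (genes of myelin-forming glia, of which Mog was at 0 in some libraries) also scored lower on average with hydroquinone (7.07 ± 2.70 to 3.99 ± 1.96 in wild type, 6.88 ± 1.67 to 5.44 ± 2.42 in knockout, SD, n = 4 libraries). With that score as a term, Txnrd1 had 0.60 and did not pass (edgeR adjusted p = 0.406), while Srxn1 had 0.65 and did (adjusted p = 0.00985).

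**Figure D4:**
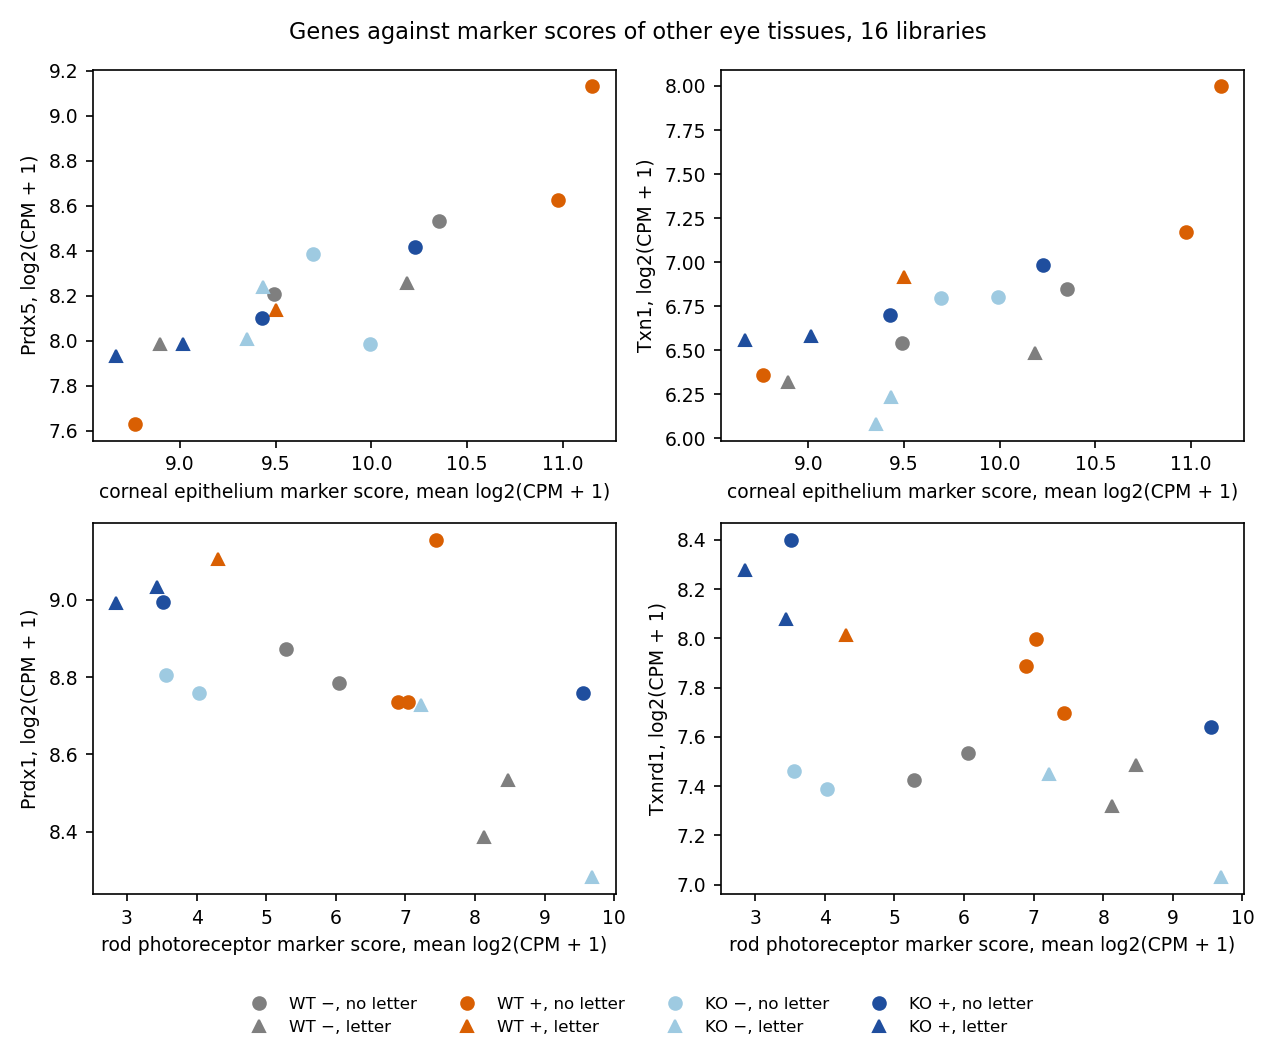
Each panel plots log2(CPM + 1) of a gene against a marker score (mean log2(CPM + 1) of the list) in all 16 libraries; colours give the group, circles identifiers without a letter and triangles those with one, and axes do not start at 0. Prdx5 climbs with the corneal score under both shapes, and Prdx1 and Txnrd1 fall with the rod score along the triangles. Among the triangles, all treated libraries have lower rod scores than all untreated ones.

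Beyond their group means, members also varied together. After subtraction of group means, Prdx2 and Txn2 had the highest correlation of the 45 pairs over the 16 libraries (r = 0.93), followed by Txn1 and Prdx5 (0.88) and Prdx2 and Prdx5 (0.83). With the 5 peroxiredoxins, r of Srxn1 was -0.33 (Prdx1), -0.018 (Prdx2), 0.22 (Prdx3), -0.12 (Prdx5) and -0.39 (Prdx6). These values share libraries and composition and are a description.

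Of a wider list of 37 genes of the pathway (other thioredoxin-like proteins, glutaredoxins, methionine sulfoxide reductases, sestrins, ribonucleotide reductase and selenoprotein synthesis factors), 35 were abundant enough to be tested and 0 passed in either direction in any of the 6 comparisons. At an unadjusted p under 0.05, 2 of 35 were higher and 0 lower with hydroquinone averaged over genotype, and the list's median log2 fold change was 0.021. The 3 with the smallest p were Txnrd3, a thioredoxin-glutathione reductase best known from testis, Rrm1, the large subunit of ribonucleotide reductase, and Txndc5, a protein disulfide isomerase of the endoplasmic reticulum. Txnrd3 had 14.8 ± 2.08 and 19.0 ± 0.699 CPM in untreated and treated wild type and 16.04 ± 2.22 and 18.1 ± 0.825 CPM in knockout (SD, n = 4 libraries), with 0.27 as its log2 fold change (edgeR adjusted p = 0.775). Rrm1 and Txndc5 had 0.23 and 0.12 (adjusted p 0.823 and 0.907).

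Among the 15370 other tested genes, Gstm1 (Pearson r = 0.89) and Osgin1 (0.89) were among the 3 whose log2(CPM + 1) over the 16 libraries was most like that of Srxn1. For Prdx3 the 3 were Mtif3 (0.79), Timm10 (0.78) and Spcs2 (0.77). Both sets were picked as the highest of many values and carry no test.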

How the data were processed

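RNA sequencing of RPE gave 16 libraries from 13 mice. The authors deposited whole-number counts per Ensembl gene (100% of values whole, though the table's name says FPKM); STAR, Cufflinks, DESeq2 and the build mm10 are listed per the submitters' processing notes, with no role, and the strand setting and annotation are not given in the sources used here. Symbols and coordinates come from GENCODE (GRCm38, 1-based) and promoters from RefSeq. Of all genes, 15380 averaged 1 CPM or more (99.8% of counts) and were tested with edgeR 4.0.16 (R 4.3.3), using TMM and the quasi-likelihood F test on 4 group means in 1 model. P-values were adjusted over all genes (Benjamini-Hochberg, threshold 0.05), and standard errors were derived from the F statistic. Eyes of a mouse entered as separate libraries (limma's consensus correlation between them was -0.020), with summed eyes as an alternative. Mice with both eyes sequenced were all untreated, and their eyes differed in identifier form. That correlation therefore cannot show that the eyes of a mouse are independent. Ratios of genes were tested by exact permutation over mice on log2(CPM + 1), and correlations by 100000 permutations (scipy 1.17.1). Alternatives were median-of-ratios scaling, DESeq2 1.42.0, other filters, limma 3.58.1 with the mouse as block, covariates, subsets and leaving out each library. Tested on simulated counts (15380 genes), the edgeR step recovered 67% of 2-fold changes for the average over genotype, 51% for hydroquinone in wild type and 46% in knockout. The named genes are all 10 members, the 3 genes of the pathway list with the smallest p and the 3 most similar genes for Srxn1 and Prdx3. Not every result under this rule is reported here. The members and lists were chosen with earlier results of these data known. RefSeq protein sequences and a Prdx6 promoter were not used here.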

Additional observations from a re-analysis of the deposited data

Results flagged for a closer look

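Within the 4 groups, 52 sets of 4 values (10 genes and 3 log2 ratios) were searched for a library that stood apart, by the gap to its nearest neighbour as a share of the group's range. Chance marks about 1 set in 20, and 4 were marked. Prdx1 was low in untreated knockout replicate 4, at 8.28 on the log2(CPM + 1) scale against 8.73 to 8.81 in the others (gap share 0.848). It was also low in treated knockout replicate 1, at 8.76 against 8.99 to 9.03 (0.845). These are the 2 libraries with rod marker scores above 9, and without them the Prdx1 log2 fold change averaged over genotype was 0.28 in place of 0.29. Prdx3 was high in treated knockout replicate 2, at 6.33 against 6.00 to 6.03 (0.917). The log2 ratio of Txnrd1 to Txnrd2 was low in untreated wild-type replicate 3, at 3.79 against 4.09 to 4.14 (0.844).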

How the results depend on the processing

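Across 30 alternatives for the average over genotype and 23 within a genotype, Srxn1 and Txnrd1 kept a positive log2 fold change for hydroquinone throughout (0.61 to 0.71 and 0.51 to 0.77 for the average). Srxn1 passed in 28 of 30 for the average and Txnrd1 in 9 of 30. In the average, 1 member passed, Srxn1, with no low-count filter, eyes summed, the identifier form or the oligodendrocyte score as a covariate, or without the 2 libraries of fewest detected genes, 0 passed in libraries without or with a letter, and 1 to 2 passed with 1 library left out. In knockout, 2 passed with DESeq2, with the rod score as a covariate or without libraries of rod score above 9; 0 passed with eyes summed, only the groups compared, or libraries without or with a letter; and 0 to 2 passed with 1 library left out. In wild type DESeq2 called 1 and all other alternatives 0. Between genotypes and for the interaction every alternative gave 0 members. The ratio differences no longer passed within identifier forms for Txnrd1 to Txnrd2 (0.77 without and 0.81 with a letter) and Prdx1 to Prdx3 (0.084 and 0.60), where with a letter the 18 permutations allow no p under 0.0556, so the test could not pass there. That of Txn1 to Txn2 was 0.34 to 0.61 with 1 library left out.

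Members that did not pass changed sign in some fits, near 0. In wild type, Prdx2 was -0.000771 with limma and -0.038 with the corneal covariate, Prdx5 -0.016 with the corneal covariate, and Prdx6 0.066 with the oligodendrocyte covariate. In knockout with eyes summed, Txnrd2 was 0.059, Txn2 0.016 and Prdx5 0.018. Without the 2 libraries of fewest genes, Txnrd2 was 0.084, Txn2 0.00280 and Prdx5 0.016 there, and without libraries of rod score above 9 Prdx6 was -0.052 and Txn2 0.012. Prdx3 in knockout was -0.000828 with the rod covariate, -0.000695 with only the groups compared and -0.039 with a letter. Prdx5 in knockout was 0.042 without a letter, 0.063 with the corneal and 0.036 with the oligodendrocyte covariate. In the average, Prdx6 was 0.017 with eyes summed and 0.12 with the oligodendrocyte covariate, Prdx3 0.00413 with eyes summed and 0.012 without the 2 libraries of fewest genes, and Prdx5 -0.078 with a letter. With 1 library left out, ranges in wild type were -0.12 to 0.13 for Prdx2, -0.22 to 0.012 for Prdx6 and -0.072 to 0.43 for Prdx5. In knockout they were -0.037 to 0.086 for Prdx2, -0.00618 to 0.18 for Prdx6, -0.15 to 0.11 for Txnrd2, -0.11 to 0.027 for Txn2, -0.068 to 0.090 for Prdx3 and -0.16 to 0.039 for Prdx5. In the average they were -0.041 to 0.083 for Prdx2, -0.066 to 0.048 for Prdx6, -0.069 to 0.00972 for Prdx3 and -0.057 to 0.19 for Prdx5. The covariates for corneal and oligodendrocyte scores and the 2 subsets by rod score and by detected genes were chosen after the data were seen. Where a call was lost, the cause was not tested. No paired analysis of treatment was possible because no mouse had both treated and untreated libraries, and replicate numbers only name the libraries. Txnrd2 had the fewest counts of the members, 161 to 297 per library.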
